A study of Mus musculus with 16 samples.

Results

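The genes of 10 transcription factors of the hematopoietic stem cell (HSC) were described across RNA-seq libraries of mouse bone marrow HSCs: Gata2, Tal1, Lmo2, Lyl1, Runx1, Fli1, Erg, Mecom, Hlf and Gfi1b. They were taken by symbol from the table of raw read counts, which held all 10 of them among 25239 genes. Members and gene lists were not chosen by a measured value, but earlier results of these data were known when they were chosen.

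Blood stem cells keep their identity through a small set of DNA-binding proteins that sit together on shared enhancers and promote one another's expression. A core complex pairs the basic helix-loop-helix proteins TAL1 or LYL1 with the bridging protein LMO2 and a GATA factor, and the ETS factors FLI1 and ERG and the runt factor RUNX1 bind many of the same sites. HLF and MECOM are widely used as marks of the most primitive HSCs, and GFI1B is a repressor that restrains HSC cycling and is needed for the platelet and red cell lines.

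The 16 libraries came from mice aged 4 to 6 months that carried either an intact Selp gene (SelpWT, here WT) or a knockout of it (SelpKO, here KO). Selp encodes P-selectin, an adhesion receptor, and PSGL-1 is its ligand. Of the libraries, 3 WT and 2 KO were from fresh cells, 3 WT and 3 KO from cells cultured with vehicle, and 2 WT and 3 KO from cells that received PSGL-1 (125 ng/mL, 24 hours) in culture. The medium, shared by the cultures, was StemSpan with 10% fetal calf serum, stem cell factor (SCF) at 300 ng/mL, interleukin-11 at 20 ng/mL, Flt-3 ligand at 1 ng/mL, penicillin and streptomycin. How long the vehicle culture lasted, how many mice stand behind a library and what kind of knockout was used are not stated. The libraries of a group were taken as separate samples; their spread, which is all that the p-values measure, may be technical.

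The libraries held 12590539 to 24690824 counts each. Levels are given as CPM, the count of a gene scaled to the library's total, and a floor of 3 counts stood at 0.122 to 0.238 CPM. Selp lay between 16.8 and 183 CPM in the 8 WT libraries and between 0 and 12.4 CPM in the 8 KO libraries, with no overlap. One library, WT PSGL-1 replicate 1, stood apart: only 9035 genes had a count in it, compared with 11101 to 13480 in each of the others, and it is called the sparse library here. Most results that rest on it are given with and without it, but the fits of Gfi1b are not. The markers of the labelled cell type were present, with summed HSC markers of 1910 to 2948 CPM in fresh libraries. Markers of other cells were in part present. Hba-a1 and Hbb-bt (red cells), Cd3d, Cd3e and Cd3g (T cells) and Ebf1 (B cells) were at 0 in all 16 libraries, while Klf1 and Epor (red cell precursors) reached 88.8 and 83.9 CPM, Nkg7 (NK and T cells) reached 91.5 CPM and Cd79b (B cells) ran from 3.81 to 62.0 CPM.

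All 10 members passed the filter on low counts. In the coordinates of RefSeq for the mouse genome GRCm38.p6, the genes lie as follows: Gata2 at chr6:88193891-88207032 (plus strand), Tal1 at chr4:115056426-115071755 (plus), Lmo2 at chr2:103957903-103981878 (plus), Lyl1 at chr8:84701423-84704716 (plus) and Gfi1b at chr2:28609450-28621982 (minus). Runx1 lies at chr16:92601466-92826074, Erg at chr16:95359169-95586600, Fli1 at chr9:32422204-32543432, Mecom at chr3:29951296-30509759 and Hlf at chr11:90336535-90390917, all on the minus strand. In the GENCODE annotation, genes on the opposite strand overlap Lmo2 (4931422A03Rik), Lyl1 (Nfix), Runx1 (Gm26626), Fli1 (Gm27201) and Mecom (Mecomos). Whether the counting used strand is not given, so reads of such pairs may not have been told apart.

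RefSeq promoters of GRCm38.p6 were matched by symbol for 8 of the 10 members, with 14 start sites in all; Lmo2 and Fli1 had none in the table used. Shown are windows of Gata2, Erg, Mecom and Hlf, whose WT vehicle libraries all lay below the WT fresh libraries, as described further on; Lmo2 shared that pattern. Each is the 250 bases before 1 start site, 5′ to 3′ on the gene's strand. Capitals mark matches to 4 short motifs, each searched on both strands: AGATAA or TGATAA for GATA factors, CCGGAA or CAGGAA for ETS factors, CAGATG or CAGCTG for TAL1-type E-boxes and TGTGGT for RUNX.
Gata2 upstream start, chr6:88193641-88193890, plus strand: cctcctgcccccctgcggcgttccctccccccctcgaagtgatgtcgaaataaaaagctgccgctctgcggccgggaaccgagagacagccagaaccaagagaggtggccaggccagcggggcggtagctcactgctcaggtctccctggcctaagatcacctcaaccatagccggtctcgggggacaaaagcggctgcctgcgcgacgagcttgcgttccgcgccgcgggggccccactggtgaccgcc
Erg most downstream start, chr16:95459349-95459598, minus strand: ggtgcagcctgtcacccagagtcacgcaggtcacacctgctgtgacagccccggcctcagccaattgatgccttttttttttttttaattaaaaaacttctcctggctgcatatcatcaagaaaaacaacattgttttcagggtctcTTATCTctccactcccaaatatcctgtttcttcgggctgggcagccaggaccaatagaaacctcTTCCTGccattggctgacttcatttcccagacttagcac
Mecom upstream start, chr3:30509760-30510009, minus strand: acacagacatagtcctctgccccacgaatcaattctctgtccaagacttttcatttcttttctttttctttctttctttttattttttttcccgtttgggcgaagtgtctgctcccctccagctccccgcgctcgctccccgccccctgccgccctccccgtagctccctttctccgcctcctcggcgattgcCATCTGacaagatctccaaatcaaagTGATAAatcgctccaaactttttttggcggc
Hlf, chr11:90390918-90391167, minus strand: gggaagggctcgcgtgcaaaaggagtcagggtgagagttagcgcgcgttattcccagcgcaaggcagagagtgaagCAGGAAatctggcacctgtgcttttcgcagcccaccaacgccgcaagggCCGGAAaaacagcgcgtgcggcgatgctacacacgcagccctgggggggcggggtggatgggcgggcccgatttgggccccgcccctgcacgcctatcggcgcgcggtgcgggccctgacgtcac

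The Gata2 window held no match, and neither did the window of the other Gata2 start. The Erg window held 1 GATA and 1 ETS match, the Mecom window 1 GATA and 1 E-box match, and the Hlf window 2 ETS matches. The windows of the 2 other Erg starts and of the other Mecom start held no match. Over the 14 member windows, 4 held a GATA match, 5 an ETS match, 1 an E-box match and 0 a RUNX match. Among 32851 RefSeq promoter windows of the same length, 16.6% held the GATA motif, 35.1% the ETS motif, 25.5% the E-box and 14.1% the RUNX motif. A match describes letters only, and enhancers lie outside these windows.

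The 10 genes differed widely in level. Divided by the length of their combined exons, Lmo2 was the most abundant in fresh WT cells at 453 CPM per kb, followed by Gfi1b at 132, Gata2 at 102, Fli1 at 57.0 and Hlf at 49.7. Lyl1 (28.4), Tal1 (19.0), Erg (18.1), Runx1 (11.7) and Mecom (8.44 CPM per kb) followed. The libraries' ranges overlapped between these neighbours: Gfi1b and Gata2, Fli1 and Hlf, Tal1 and Erg, Erg and Runx1, and Runx1 and Mecom. In fresh KO cells the means fell in the same order, from 581 CPM per kb for Lmo2 to 5.15 for Mecom. The combined exons of Runx1 (12.025 kb) and Mecom (12.427 kb) include many isoforms, so their scaled levels are low estimates if only short isoforms are used.

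**Figure D1:**
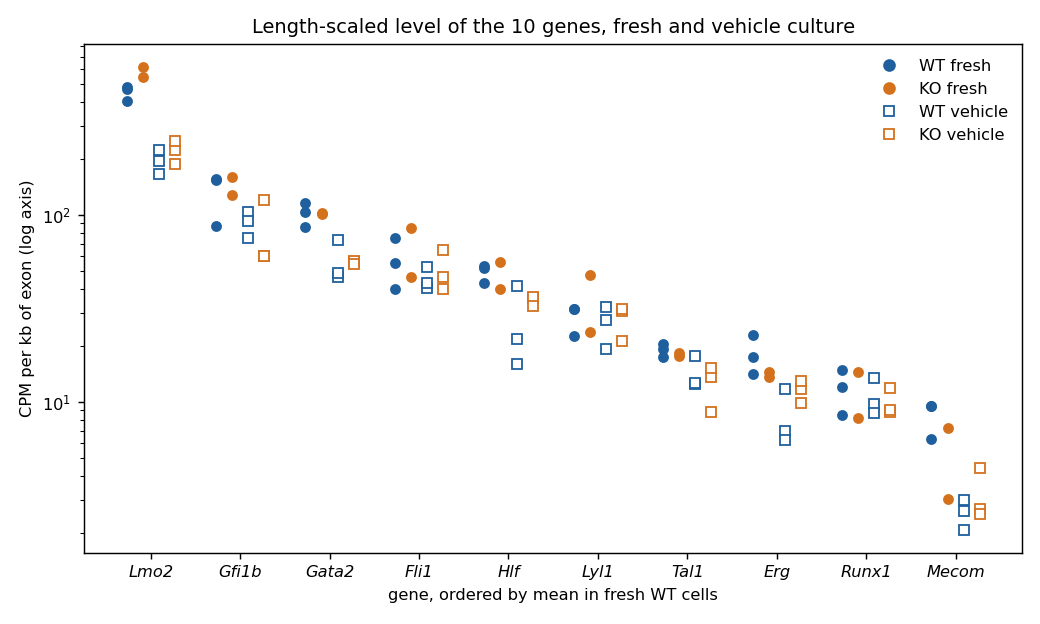
Level of the 10 genes in CPM per kb of combined exon (log axis) in each fresh library (filled circles) and each vehicle library (open squares), WT in blue and KO in orange. Lmo2 is highest throughout and lies lower in vehicle culture than in fresh cells, at group means of 195 and 220 against 453 and 581 CPM per kb.

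The first question was how the stem cell factors stood after culture. Lmo2 fell in vehicle culture in both genotypes, and Gata2 fell in the average over genotypes. No member rose. The bridging protein gene Lmo2 fell 2.38-fold and Gata2, whose product is needed for HSC survival, fell 1.74-fold in the average of WT and KO. The fitted change was below 0 for all 10 members in WT, in KO and in the average. The median over all genes was also below 0, at -0.07 in WT and -0.02 in KO. Some members lay well within 1 SE of 0, such as Lyl1 (-0.02, SE 0.46) and Runx1 (-0.05, SE 0.32) in WT. Genes were tested with edgeR's quasi-likelihood test over all 14124 genes that passed the filter, with Benjamini-Hochberg adjustment, and those with an adjusted p under 0.05 count as changed. In the average of the genotypes 2 of 10 members passed, against 6.48% of all genes in either direction and 2.3% in the lower direction. The median log2 change of the members was -0.63, against -0.07 over all genes.

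Lmo2 stood at 1024, 877 and 1042 CPM in the fresh WT libraries and at 1338 and 1181 CPM in the fresh KO libraries. In vehicle culture it stood at 361, 420 and 485 CPM in WT and at 483, 406 and 538 CPM in KO. No cultured library reached the level of any fresh one. In WT the log2 change was -1.12 (SE 0.18, edgeR adjusted p = 0.00468), with 1.64% of all genes changed. In KO it was -1.38 (SE 0.20, edgeR adjusted p = 0.0017), with 1.77% of all genes changed. The difference between the genotypes' responses, -0.26 (SE 0.27), had an edgeR adjusted p of 1.0.

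Gata2 stood at 467, 626 and 562 CPM in fresh WT and at 544 and 554 CPM in fresh KO cells. After vehicle culture it stood at 252, 397 and 263 CPM in WT and at 303, 307 and 295 CPM in KO. Each vehicle library was thus below each fresh library, as for Lmo2. The log2 change in the average of the genotypes was -0.80 (SE 0.16, edgeR adjusted p = 0.0072). Within one genotype alone it did not pass, at -0.76 in WT (SE 0.22, adjusted p = 0.114) and -0.83 in KO (SE 0.24, adjusted p = 0.107) in the same test. DESeq2 called Gata2 in WT (adjusted p = 0.0119, with 5.64% of all genes called) and in KO (0.0125, with 5.88%), and over all alternatives its adjusted p ran from 0.00758 to 0.367 in WT and from 0.0102 to 0.485 in KO.

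Erg, the ETS factor that maintains HSCs, stood at 48.8, 60.5 and 78.7 CPM in fresh WT and at 50 and 47.0 CPM in fresh KO cells. In vehicle culture it stood at 40.7, 24.1 and 21.7 CPM in WT and at 40.9, 44.9 and 34.4 CPM in KO. All 6 vehicle libraries were below all 5 fresh ones, yet the KO values came close to the fresh range. The log2 changes were -1.03 in WT (SE 0.46, edgeR adjusted p = 0.391) and -0.25 in KO (SE 0.51, adjusted p = 0.957). Lmo2, Gata2 and Erg were the 3 members of which all 11 cultured libraries, with PSGL-1 or vehicle, lay below all 5 fresh libraries; 3.46% of all genes showed that pattern.

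Hlf, a PAR bZIP factor of primitive HSCs, stood at 348, 357 and 290 CPM in fresh WT and at 268 and 374 CPM in fresh KO cells. In vehicle culture it stood at 278, 144 and 107 CPM in WT and at 239, 242 and 218 CPM in KO. The first WT vehicle library was above the lower fresh KO library, and the other vehicle libraries were below every fresh one. The log2 change in the average of the genotypes, -0.62 (SE 0.23), had an edgeR adjusted p of 0.134. Without WT vehicle replicate 1 it was -0.86 and passed (edgeR adjusted p = 0.0182); over all alternatives the adjusted p ran from 0.0182 to 0.315.

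Mecom, which encodes the zinc finger protein EVI1 and longer forms of it, stood at 78.6, 119 and 118 CPM in fresh WT and at 37.8 and 90.2 CPM in fresh KO cells. In vehicle culture it stood at 37.1, 32.5 and 25.8 CPM in WT and at 55.2, 33.2 and 31.3 CPM in KO. In WT no vehicle library overlapped the fresh ones, while in KO the lower fresh library lay inside the vehicle range. The log2 change of -1.63 in WT (SE 0.66) did not pass (edgeR adjusted p = 0.324). It passed once the sparse PSGL-1 library, which is in neither group but shares the estimate of the spread, was left out, at -1.63 (SE 0.37, edgeR adjusted p = 0.0205), with 2.91% of all genes then changed. Its adjusted p in WT ran from 0.000164 to 0.556 over all alternatives.

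The other 5 members did not pass in any of the 3 culture comparisons (edgeR). Tal1, a founder of the complex, ran from 76.1 to 89.0 CPM in fresh libraries and from 38.8 to 77.1 CPM in vehicle libraries. Its relative Lyl1 ran from 40.5 to 85.5 CPM and from 34.4 to 58.3 CPM. Gfi1b ran from 160 to 291 CPM in fresh and from 110 to 219 CPM in vehicle libraries, where its mean was 62.3% of the fresh mean, close to the 62.5% of Hlf. For Runx1 (98.9 to 177 CPM fresh, 104 to 161 CPM vehicle) and the ETS factor Fli1 (140 to 296 and 140 to 226 CPM), the vehicle range lay within the fresh range or reached just below it. Their log2 changes in the average of the genotypes ran from -0.64 for Gfi1b (SE 0.79) to -0.09 for Runx1 (SE 0.24), with edgeR adjusted p from 0.502 to 0.939. The SE of Gfi1b drew on a spread shared with the sparse library, where Gfi1b had 0 counts. Counted by ranges alone, 5 of 10 members in WT (Gata2, Lmo2, Erg, Mecom, Hlf) and 6 of 10 in KO (Gata2, Tal1, Lmo2, Erg, Hlf, Gfi1b) lay lower in vehicle culture without overlap. Over all genes 14.8% did so in WT and 20.3% in KO.

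**Figure D2:**
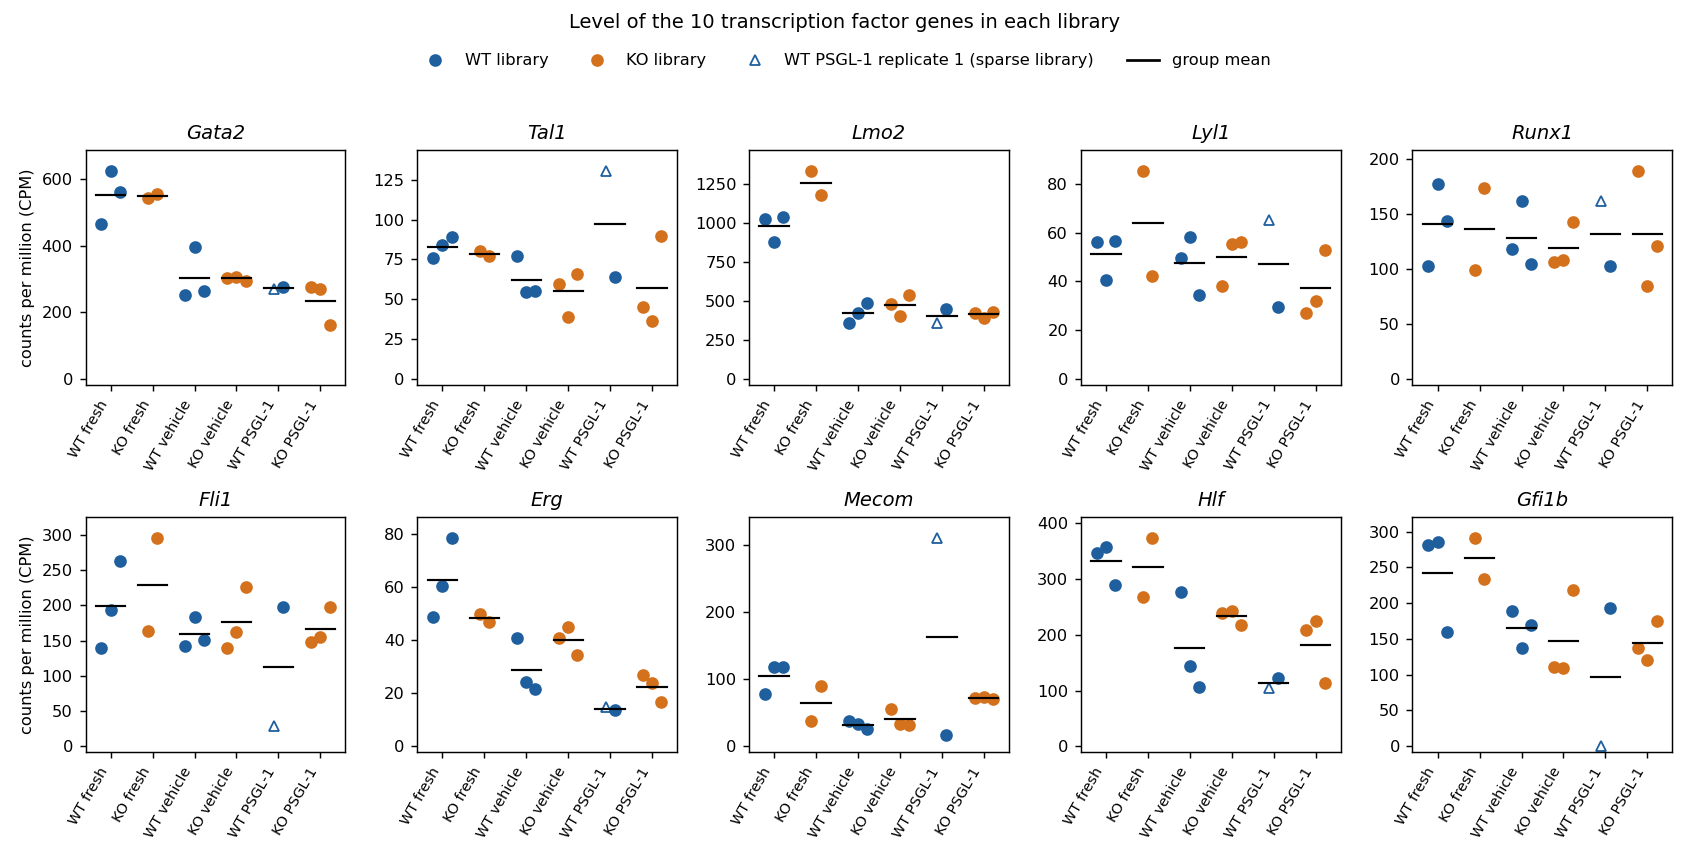
CPM of each of the 10 genes in each library, in 6 groups, WT in blue and KO in orange, with a line at the group mean; the open triangle is the sparse library WT PSGL-1 replicate 1. Lmo2 lies between 877 and 1338 CPM in fresh libraries and at 538 CPM or lower in every cultured library, while Mecom, Fli1 and Gfi1b in WT PSGL-1 depend on which of its 2 libraries is read.

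**Figure D3:**
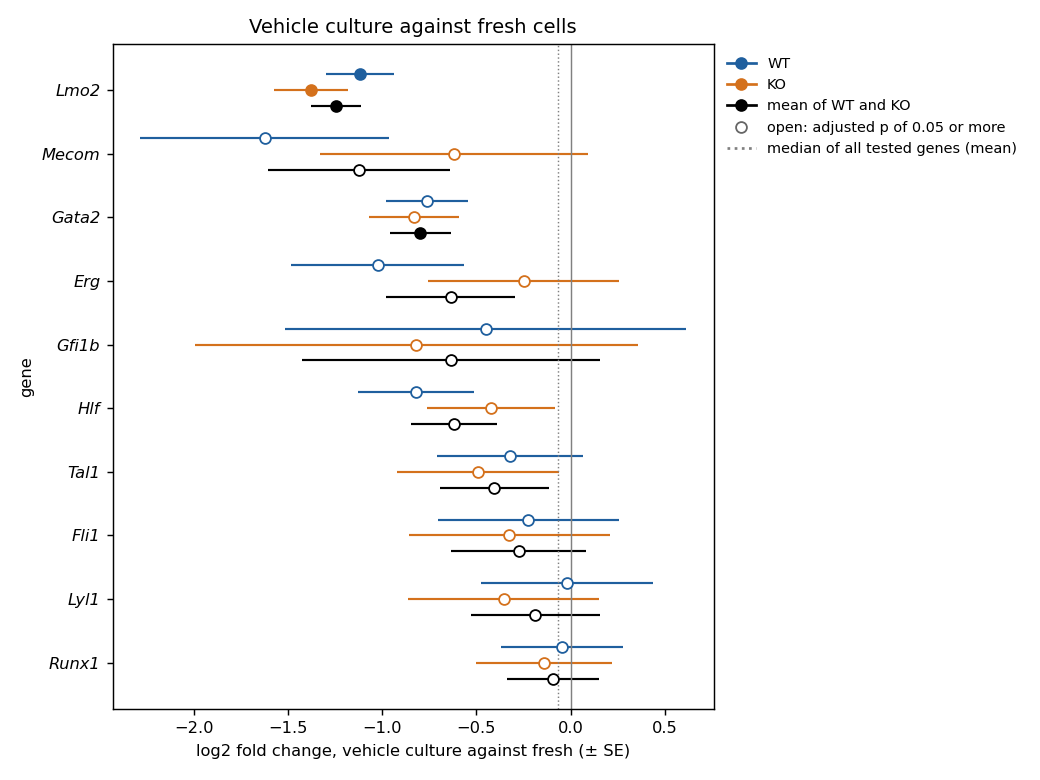
Log2 fold change of vehicle culture against fresh cells (± SE) in WT, KO and their average; filled points have an adjusted p under 0.05, and the dotted line is the median of all tested genes. All 10 members lie below 0, though the error bars of some cross it. The filled points are Lmo2 in all 3 contrasts and Gata2 in the average, at -0.80.

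In bulk RNA a lower CPM can come from fewer cells of a type or from less of the RNA per cell. CPM is a share of the library's total, so more of other RNA can lower it too. These cannot be told apart here. Some summed markers of other cells moved with culture. The 10 HSC markers summed to 1910 to 2948 CPM in fresh and 1253 to 1954 CPM in vehicle libraries. The 8 granulocyte and monocyte markers summed to 293 to 716 CPM in fresh and 16.6 to 305 CPM in vehicle libraries, and the 8 erythroid markers to 50.1 to 204 and 4.30 to 54.2 CPM. The 6 megakaryocyte and platelet markers summed to 778 to 1375 CPM fresh and 550 to 1167 CPM in vehicle libraries. These 4 sums overlapped between fresh and vehicle libraries when the genotypes were pooled. Within a genotype the HSC sum did not overlap. It was at 1910 to 2541 CPM fresh and 1253 to 1623 CPM with vehicle in WT, and at 2506 to 2948 and 1835 to 1954 CPM in KO. The granulocyte and monocyte sum and the erythroid sum overlapped in WT but not in KO. The megakaryocyte and platelet sum overlapped in both genotypes. The sum of the 5 T and NK cell markers in the table did not overlap even with the genotypes pooled. It stood at 40.9 to 103 CPM fresh and 10.2 to 21.6 CPM in vehicle libraries. Cd3d, Cd3e and Cd3g were at 0 in all 16 libraries, so that sum held only Nkg7 and Klrb1c. Among the granulocyte and monocyte markers only Prtn3 was counted in every library, and each other one was at 0 in 9 to 13. The B cell sum stood at 38.2 to 56.4 CPM fresh and 14.6 to 62.0 CPM in vehicle libraries. The endothelial and stromal sum stood at 41.2 to 154 and 53.9 to 98.9 CPM. Both overlapped with the genotypes pooled and in WT, but not in KO. The part of these markers in the members' changes was not tested. Mast cell and basophil markers, a lineage that also uses Gata2, summed to at most 11 CPM in any library, and Ms4a2, Tpsb2 and Cma1 were at 0 in all 16.

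A wider view came from 3 lists of genes around the members. Among 16 partners and cofactors, 2 fell in the average of the genotypes and 0 rose (edgeR), against 2.3% of all genes that fell and 4.18% that rose. These were Ssbp2, which stabilises the LDB1 adaptor of the LMO2 complex, at -0.87 (SE 0.18, edgeR adjusted p = 0.00807), and Zfpm1, which encodes the GATA partner FOG1, at -0.92 (SE 0.18, edgeR adjusted p = 0.00531). The adaptor gene Ldb1 itself was at -0.41 and the RUNX partner Cbfb at 0.73, neither of which passed. The list's median was -0.07, equal to that of all genes when rounded.

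Of 18 relatives of the members in the same protein families, 17 were tested, 1 rose and 0 fell, a count near the same shares of all genes. The gene that rose was Runx3, a runt factor like Runx1. It ran from 21.8 to 85.0 CPM in fresh libraries and from 132 to 231 CPM in vehicle libraries, without overlap. Its log2 change was 1.62 in WT, 2.49 in KO and 2.06 in the average (SE 0.22, edgeR adjusted p = 5.41e-05). Runx1, in contrast, was at -0.09 in the average and Runx2 at -0.18; the difference between these genes was not tested.

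Of 14 genes known to be bound by the members, 5 fell and 1 rose in the average of the genotypes, against 2.3% and 4.18% of all genes, and the median was -0.93, against -0.07 over all genes. Nfe2, a bZIP factor of platelet formation, had group means of 682 ± 29.5 CPM (SD, n = 3) in fresh WT and 823 ± 15.1 CPM (n = 2) in fresh KO. It was at 279 ± 64.0 and 313 ± 25.6 CPM (n = 3 each) in vehicle culture, a log2 change of -1.27 (SE 0.17, edgeR adjusted p = 0.000293). Gp9, a subunit of the platelet von Willebrand factor receptor, was at -2.33 (SE 0.52, edgeR adjusted p = 0.0135), and Zfpm1 belongs to this list too. The stem cell factor receptor Kit, at -0.94 (SE 0.21, edgeR adjusted p = 0.0143), also fell; it was named after its value was seen, and it also stands in the HSC marker list.

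The gene that rose was Cd34, a surface sialomucin of progenitors. It had means of 347 ± 55.5 CPM (SD, n = 3) in fresh WT and 257 ± 46.3 CPM (n = 2) in fresh KO cells, against 732 ± 65.3 and 866 ± 153 CPM (n = 3 each) in vehicle culture. The log2 change was 1.48 (SE 0.14, edgeR adjusted p = 1.95e-05). In the other comparisons, KO against WT and PSGL-1 against vehicle, no gene of the 3 lists passed in edgeR.

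**Figure D4:**
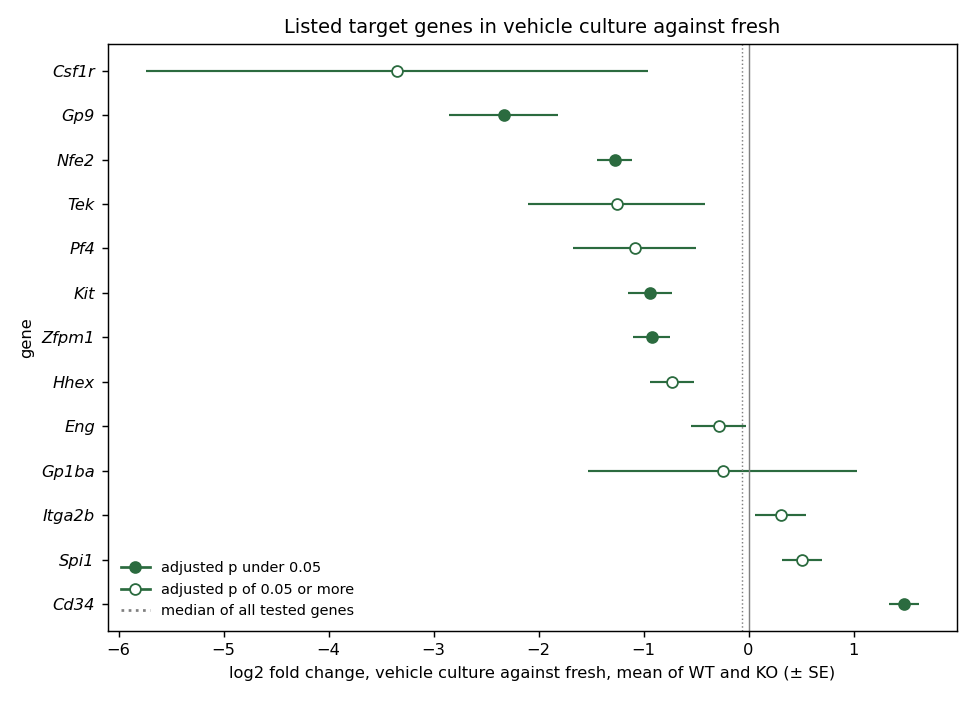
Log2 fold change (± SE) of listed target genes in vehicle culture against fresh cells, average of WT and KO; filled points have an adjusted p under 0.05 and the dotted line is the median of all tested genes. Nfe2, Gp9, Kit and Zfpm1 are filled on the lower side and Cd34, at 1.48, on the higher side.

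Profiles over the 16 libraries were compared by the root mean square difference of log2(CPM + 1) values, each centred on its own mean, among 10676 genes whose mean reached 5 CPM. The profile nearest to Lmo2 was that of Nfe2 (0.22), then H2-Ke6 (0.23) and Itm2b (0.23). Nearest to Gata2 were Paip2 (0.23), Ptov1 (0.25) and Arid4a (0.27). Between the members, Gata2 was number 41 in the order around Lmo2, at 0.35. Without the sparse library the nearest to Lmo2 were Nop53 (0.14), Nfe2 (0.18) and Rit1 (0.22), those nearest to Gata2 were Tnip1 (0.23), Paip2 (0.23) and Pck2 (0.24), and Gata2 was number 85 around Lmo2. The order thus depended on that library.

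The second question was whether loss of P-selectin altered the factors. No member passed in fresh cells, in vehicle or in PSGL-1 cultures, where 0.00708% of all genes passed in each (edgeR). Selp itself, the gene knocked out, did not pass in this test either. Its log2 difference was -5.86 (SE 1.85) in fresh cells and -3.36 (SE 1.36) in vehicle culture. With PSGL-1 it was -4.95 (SE 1.51, edgeR adjusted p = 0.765). The test thus missed large differences between the genotypes, and a member that did not pass may still differ. None of the members had an unadjusted p under 0.05 in these 3 comparisons, against 2.84%, 2.83% and 5.81% of all genes. DESeq2 called none either, against 0.658%, 0.786% and 1.77% of all genes, so 0 of 10 is near the background. In fresh cells Lmo2 was at 1338 and 1181 CPM in KO, above the 3 WT libraries at 877 to 1042 CPM. That difference of 0.42 (log2, SE 0.20) had an unadjusted p of 0.0514 and an edgeR adjusted p of 1.0, and 9.1% of all genes lay higher in KO without overlap. Gata2 differed by 0.05 (SE 0.24), Hlf by -0.01 (SE 0.34) and Mecom by -0.69 (SE 0.74).

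In vehicle culture the ranges of WT and KO overlapped for all 10 members; over all genes 9.49% did not overlap. The log2 differences ran from -0.19 for Tal1 (SE 0.39) to 0.46 for Erg (SE 0.46). Averaged over the 3 conditions, a contrast added after the data were seen, the KO against WT difference was -0.07 for Gata2 (SE 0.14), 0.20 for Lmo2 (SE 0.11) and 0.35 for Hlf (SE 0.19). None passed (edgeR), among 0.0354% of all genes that did. The standard errors set the limit: for Gata2 and Lmo2 in vehicle culture they were 0.22 and 0.18, so small differences were not detectable. For Gfi1b the SE was 1.07. It drew on a spread shared with the sparse library, which is in neither vehicle group and where Gfi1b had 0 counts.

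The third question was whether the ligand PSGL-1, added to the culture, moved the factors. No member passed against vehicle in WT or KO, and 0% of all genes did in either genotype with edgeR; 803 genes in WT and 198 in KO had an unadjusted p under 0.05, and DESeq2 called 229 and 41. With an unadjusted p under 0.05 in edgeR there was 1 member in WT, Mecom, against 5.69% of all genes, and 0 in KO, against 1.4%. The Mecom value in WT rested on the sparse library, as described further on. DESeq2 called no member, against 1.62% of all genes in WT and 0.29% in KO.

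Erg was at 14.7 and 13.7 CPM in the 2 WT PSGL-1 libraries, against 40.7, 24.1 and 21.7 CPM with vehicle. In KO it was at 26.9, 24.0 and 16.6 CPM, against 40.9, 44.9 and 34.4 CPM with vehicle. The PSGL-1 libraries thus lay below the vehicle libraries in each genotype, and 8.1% of all genes in WT and 3.74% in KO lay lower without overlap. The log2 changes were -1.03 in WT (SE 0.53, edgeR adjusted p = 0.774) and -0.84 in KO (SE 0.46, adjusted p = 1.0). In the average of the genotypes, added after the data were seen, the change was -0.94 (SE 0.35), with an unadjusted p of 0.0174 and an edgeR adjusted p of 1.0. Without the sparse library it was -0.96 (SE 0.37), and over all alternatives the adjusted p ran from 0.065 to 1.0.

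Mecom showed how far 1 library can set a value. It was at 311 CPM in the sparse WT PSGL-1 library and at 16.6 CPM in the other, against 25.8 to 37.1 CPM with vehicle. The WT change was 2.34 (SE 0.72) with the sparse library and -0.93 (SE 0.54) without it, so its direction turned. In KO, where libraries stood closer, Mecom was at 71.8, 73.4 and 70.9 CPM with PSGL-1 and at 55.2, 33.2 and 31.3 CPM with vehicle. These did not overlap, as for 4.24% of all genes on the higher side, and the change of 0.84 (SE 0.65) had an edgeR adjusted p of 1.0. In the PSGL-1 cultures, Erg lay higher in KO (16.6 to 26.9 CPM) than in WT (13.7 and 14.7 CPM), as did 11.5% of all genes without overlap, at 0.65 (SE 0.52, edgeR adjusted p = 0.798). KO against WT with PSGL-1 was -1.18 (SE 0.71) for Mecom with the sparse library and 2.10 (SE 0.58) without it. Without it DESeq2 called this difference (2.11, adjusted p = 0.00693), among 0.795% of all genes, and edgeR did not (adjusted p = 1.0); the WT group was then 1 library with no spread of its own, assumed to vary like the other groups, so the WT side is not replicated.

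The sparse library also stood apart for Gfi1b, at 0 counts, against 193 CPM in the other WT PSGL-1 library. Its floor of 3 counts corresponds to 0.169 CPM. Fli1 was at 28.0 CPM there and at 198 CPM in the other library, and Tal1 at 131 against 64.0 CPM. Gata2 (270 and 276 CPM), Hlf (104 and 122 CPM) and Erg differed little between the same 2 libraries. For Fli1 the PSGL-1 difference in WT was -0.48 (SE 0.54), and 0.33 (SE 0.38) without the sparse library.

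Gata2 in KO was at 276, 269 and 161 CPM with PSGL-1 and at 303, 307 and 295 CPM with vehicle. These did not overlap, as for 3.74% of all genes on the lower side, and 2 of the PSGL-1 libraries lay close to the vehicle range. The change of -0.37 (SE 0.22) did not pass, and in WT it was -0.16 (SE 0.24). Lmo2 was at 356 and 451 CPM in WT and at 422, 392 and 432 CPM in KO with PSGL-1, inside or near the vehicle ranges of 361 to 485 and 406 to 538 CPM. Its changes were -0.07 (SE 0.20) and -0.20 (SE 0.18). Hlf was at -0.64 (SE 0.35) in WT and -0.37 (SE 0.31) in KO, and the remaining members, Tal1, Lyl1, Runx1 and Gfi1b, overlapped vehicle in both genotypes. No difference between the genotypes in a member's PSGL-1 response passed, with edgeR adjusted p of 1.0 for each and 0% of all genes passing (611 at an unadjusted p under 0.05, and 118 by DESeq2).

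**Figure D5:**
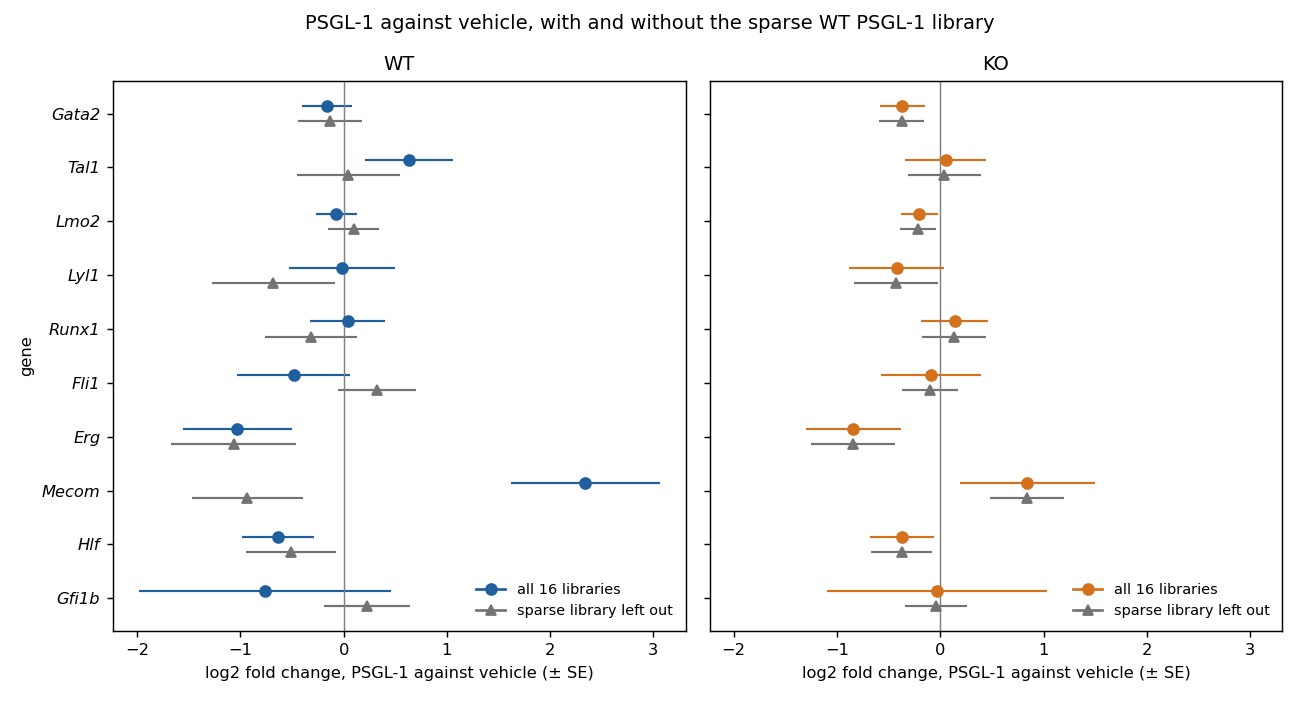
Log2 fold change of PSGL-1 against vehicle (± SE) for each gene in WT (left) and KO (right), with all 16 libraries (circles) and without the sparse WT PSGL-1 library (grey triangles). In WT Mecom moves from 2.34 to -0.93 when that library is left out, while Erg stays near -1.03 and the KO values barely move.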

How the data were processed

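Bulk RNA-seq of bone marrow HSCs was analysed in 16 libraries of 6 groups. The authors deposited raw read counts by gene symbol for each library. Purification used RNeasy Plus Micro columns and amplification the SMART Ultra-Low Input kit, version 4, per the labels' protocols. The submitters' processing notes name STAR 2.7.5c, featureCounts, MultiQC 1.10, DESeq2 and build mm10. Neither the gene annotation nor strand or multiple-match settings are stated, so near-identical copies may share reads. The amplified reads carry no stated molecular identifiers, so floors cover counting error only.

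After edgeR's filterByExpr by group 14124 genes remained. TMM scaling was used, with a single robust quasi-likelihood fit in edgeR over all 16 libraries, one mean a group, and Benjamini-Hochberg adjustment over all genes tested. Each standard error came from a fold change with its F statistic. The common biological coefficient of variation was 0.977. CPM is the count over the library's total, and CPM per kb uses combined exon lengths from GENCODE vM21. The fitting step was tested on simulated counts with less spread between libraries than these data had. That test checked the working of the code and does not show what the fit could detect here. The software was edgeR 4.0.16, DESeq2 1.42.0 and limma 3.58.1 in R 4.3.3.

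The members and gene lists were chosen with earlier results of these data known. Named are all members, Selp, up to 4 genes per list with the smallest adjusted p among changed genes, and the 3 nearest profiles of each changed member. Markers, listed genes that did not pass and profiles without the sparse library are named beside these and were chosen after their values were seen. The single result of 1 listed target gene is not reported here, though it stays in all fits, counts and sums. Libraries within a group differed beyond sampling noise: chi-square over degrees of freedom was 59.8 or more for every pair. Alternatives were RLE size factors, DESeq2, limma voom with library weights, no filter, the compared groups fitted alone, single libraries left out, and blocks by replicate number or library set.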

Additional observations from a re-analysis of the deposited data

How the results depend on the processing

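The fall of Lmo2 in vehicle culture passed in every alternative run, in WT, in KO and in their average, and that of Gata2 in the average did too; in that average Lmo2 had edgeR, DESeq2 or voom log2 changes from -1.33 to -1.18 and Gata2 from -0.91 to -0.74. The number of members changed in culture was 1 in WT, with 1.64% of all genes changed. It went to 3 with DESeq2 (5.64% of all genes) and 2 with the groups compared alone (1.96%). Without the sparse library it was 2 (2.91%), and with voom 3 (5%). In KO it went from 1 (1.77%) to 2 with DESeq2 (5.88%) and 2 with voom (3.84%). With DESeq2 and no sparse library, added after the data were seen, it was 4 in WT, 2 in KO and 5 in the average, against 2 in that average, and 1 in KO against WT with PSGL-1, while 8.52%, 8.58%, 16.8% and 0.795% of all genes were called. Leaving out 1 library at a time gave 0 to 3 members in KO against WT with PSGL-1, in PSGL-1 against vehicle in WT, in the average of the genotypes and in the interaction, and in KO against WT averaged over conditions. The 3 were Fli1, Mecom and Gfi1b, called when WT PSGL-1 replicate 2 was left out and the sparse library stood alone, with its spread taken from the other groups; 15.1% to 19.8% of all genes were called in these 5 comparisons then, so 3 of 10 is near the background, and the Gfi1b fold has no measured size.

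Directions turned for small changes. In culture, leaving out 1 library gave Lyl1 from -0.18 to 0.14 in WT, from -0.79 to 0.32 in KO and from -0.41 to 0.14 in the average, Runx1 from -0.24 to 0.14 in WT, from -0.45 to 0.26 in KO and from -0.26 to 0.10 in the average, Fli1 from -0.42 to 0.041 in WT and from -0.66 to 0.11 in KO, and Mecom from -1.09 to 0.066 in KO. For PSGL-1 against vehicle in WT, Mecom ran from -0.93 to 3.24 when 1 library was left out, at -0.93 without the sparse library (DESeq2 -0.95), and Gata2 ran from -0.29 to 0.066 when 1 library was left out. In the average of the genotypes Mecom ran from -0.048, without the sparse library (DESeq2 -0.053), to 2.04. Mecom in KO against WT with PSGL-1 ran from -2.08 to 2.10, the latter without the sparse library, and was 2.11 with DESeq2 without it and 0.068 with voom, against -1.18 with all libraries. These Mecom values with PSGL-1 turned when the sparse library was left out, that of KO against WT also with voom and all libraries, and Mecom in KO culture turned without KO fresh replicate 2; the cause of these and the other reversals was not tested.

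No pairing by replicate number was seen: deviations of same-numbered libraries had a median correlation of 0.007 and none of 36 pairs was over 0.1. The library numbers also fall into sets of 6 with the groups in the same order, and what the sets stand for is not stated. Libraries of the same set had a median correlation of 0.005, with 1 of 36 pairs over 0.1. With groups of 2 or 3 libraries, these values cannot exclude a pairing or a batch. With the replicate block, Lmo2 was called in the same culture contrasts and Gata2 in the average (edgeR adjusted p = 0.0115), while Lyl1 in WT turned to 0.033. The replicate block gave 788 genes changed in culture in the average of the genotypes and the set block 819, against 915.

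Over all genes, 915 changed in culture in the average of the genotypes, with 1780 by DESeq2, 1896 by voom, 1566 without the sparse library and 1455 with the groups compared alone. In WT 231 changed, with 797, 706 and 440 by the first 3 of these, and in KO 250, with 831, 542 and 554. Leaving out any 1 library of the groups compared gave 85 to 153 genes in WT and 76 to 488 in KO, where the extremes came without KO fresh replicates 1 and 2, and 552 to 976 in the average, lowest without KO fresh replicate 1. KO against WT gave 93, 111 and 250 genes by DESeq2 in fresh, vehicle and PSGL-1 cells, against 1 each by edgeR, which gave 83 in fresh cells without KO fresh replicate 2, 8 in vehicle culture without WT vehicle replicate 3 and 2979 with PSGL-1 without WT PSGL-1 replicate 2. The members' levels stood above the floor of 0.122 to 0.238 CPM, apart from Gfi1b in the sparse library.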
